A study of Mus musculus with 12 samples.

Results

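The fibrillar collagens are the collagens that assemble into the banded fibrils of connective tissue. The 9 genes described here were chosen by symbol as Col1a1, Col1a2, Col3a1, Col5a1, Col5a2, Col5a3, Col11a1, Col24a1 and Col27a1, and all 9 were among the 55414 genes of the count table. RNA-seq was performed on the inferior vena cava (IVC) of 12 wild-type C57BL/6 mice aged 10 wk, with 1 library from each mouse. In the AVF group, 6 mice had an infrarenal aortocaval fistula, made by a needle puncture from the aorta into the IVC, and the piece of IVC between the fistula and the left renal vein was collected on day 7. In the sham group, 6 mice had the same operation without the puncture and their IVC was collected on day 7. Each group held 3 female and 3 male mice, and no group carried a transgene or a deletion.

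Fibrillar procollagen chains are made in the endoplasmic reticulum, where prolines and lysines are hydroxylated and 3 chains fold into a triple helix. Outside the cell the propeptides are cut off, and the molecules then align in fibrils. In the wall of a vein, type I collagen (2 chains from Col1a1 and 1 from Col1a2) and type III collagen (3 chains from Col3a1) make up most of the fibrils, and they are made by fibroblasts and smooth muscle cells. Type V collagen (Col5a1, Col5a2 and Col5a3) copolymerizes with type I and is known for starting fibrils and limiting their width. Type XI collagen (Col11a1), type XXIV (Col24a1) and type XXVII (Col27a1) are known mainly from cartilage and bone.

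The repeat that a triple helix needs, a glycine in each run of 3 residues, can be read in the exons of these genes. An exon of 54 bases has room for 6 repeats of 9 bases, each coding for a glycine and 2 further residues, and 21 to 33 exons of that length were found among the 49 to 65 whole coding exons of each of the 9 genes in the GENCODE annotation of GRCm39. In 16942 protein-coding genes, 0.719% of coding exons had 54 bases, and 18 genes had at least 10 such exons, among them all 9 described here. The exons below are shown so that the repeat shared by genes that rose and genes that did not can be seen. Each is the first in-frame exon of 54 bases with a glycine codon at the start of every 9 bases, so the repeat was the rule of choice. The exons are printed 5′ to 3′ on the strand of their gene, and the capitals mark the glycine codon at the start of each 9 bases.
Col1a1 exon 8 (chr11:94830730-94830783, plus strand): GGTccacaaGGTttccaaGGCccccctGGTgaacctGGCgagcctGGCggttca
Col1a2 exon 8 (chr6:4515481-4515534, plus strand): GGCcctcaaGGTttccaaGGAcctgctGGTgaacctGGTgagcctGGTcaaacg
Col3a1 exon 6 (chr1:45364520-45364573, plus strand): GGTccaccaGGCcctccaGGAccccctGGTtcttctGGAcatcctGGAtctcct
Col5a1 exon 15 (chr2:27855263-27855316, plus strand): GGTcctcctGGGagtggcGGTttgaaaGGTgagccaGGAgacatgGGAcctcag
Col5a3 exon 15 (chr9:20712364-20712417, minus strand): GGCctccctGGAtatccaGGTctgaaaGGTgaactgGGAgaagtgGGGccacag
Col27a1 exon 4 (chr4:63150029-63150082, plus strand): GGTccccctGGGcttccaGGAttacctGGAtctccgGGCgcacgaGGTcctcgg
The 6 glycine codons in each of these exons follow from that rule of choice, and the 6 genes lie on 6 chromosomes.

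The libraries held 15177881 to 22717423 expected counts, of which ribosomal RNA took 46.0% in the female AVF sample 7 and 2.39% to 12.6% in the others. Ribosomal RNA here covers the genes annotated as rRNA and those annotated as mitochondrial rRNA. Expression is given as normalized CPM, counts scaled to the size of each library by TMM factors. A gene was taken as detected above 3 counts, which came to 0.127 to 0.324 normalized CPM. All 5 endothelial and all 5 smooth muscle marker genes were detected in every library. The AVF samples 5 and 9, which the study set apart from the other AVF by their expression, held 2371 and 6654 normalized CPM over 6 hepatocyte genes, against 1.08 to 3.67 in the other 4 AVF and 0.334 to 2.84 in sham. They are kept in the AVF group, to which the labels assign them, and results are also given without them.

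The fibrillar collagens took more of the RNA in the AVF group. The 9 genes made up 2.81%, 3.85% and 4.86% of the counts outside ribosomal RNA in the lowest, median and highest AVF library, and 1.05%, 1.57% and 2.62% in sham. Every AVF library lay above every sham library. The smallest step between the groups was from 2.62% in sham sample 18 to 2.81% in AVF sample 9. With ribosomal RNA kept in the total the groups overlapped, since AVF sample 7, with the most ribosomal RNA, was at 1.90% and sham samples 17 and 18 were at 1.91% and 2.55%.

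Of the 9 genes, 8 passed the filter of more than 1 CPM in at least 2 samples, and 5 of these 8 were differentially expressed genes (DEG), higher in the AVF group by at least 2-fold at an adjusted p value under 0.05. Those 5 were Col1a1, Col1a2, Col3a1, Col5a1 and Col5a2, and 0 of the 8 fell by that rule. The test was the quasi-likelihood test of edgeR, adjusted by Benjamini-Hochberg over 15912 genes, and it is the test behind each value marked edgeR. Across these genes 4.77% were DEG, 3.37% higher and 1.4% lower. The median log2 fold change was 1.18 over the 8 genes and -0.01 over all tested genes. Every AVF library lay above every sham library for the same 5 genes, which held for 4.55% of all tested genes. Without samples 5 and 9 these 5 genes were again the DEG of the family. In tissue RNA, more cells that make collagen and more collagen RNA in each cell cannot be told apart.

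**Figure D1:**
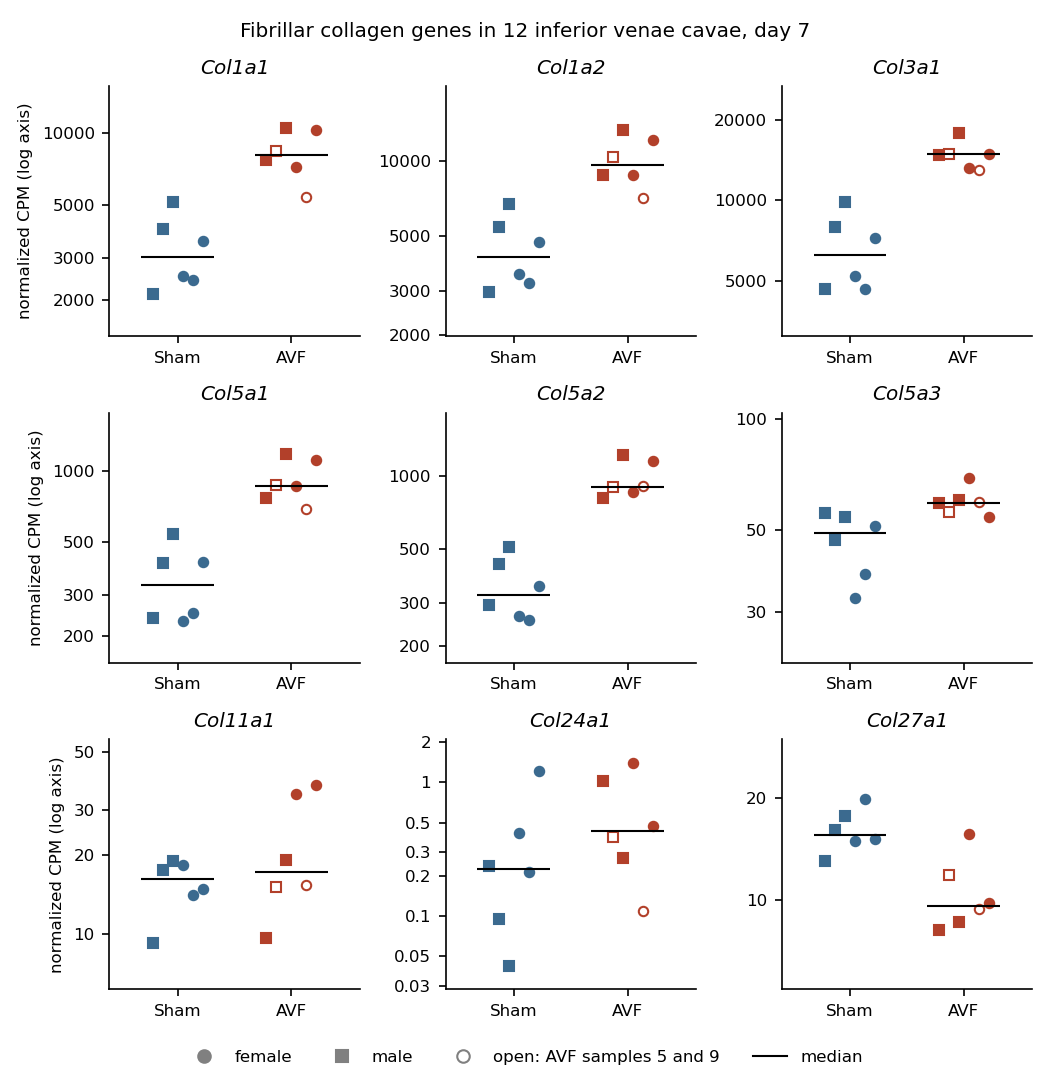
Normalized CPM of the 9 fibrillar collagen genes (log axis, a scale for each gene) in 6 sham and 6 AVF libraries, with the median as a line, circles for female and squares for male mice, and open symbols for AVF samples 5 and 9. The AVF libraries lie above all sham libraries for Col1a1, Col1a2, Col3a1, Col5a1 and Col5a2 and overlap them for the other 4 genes.

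Type I collagen is the main tensile fibril of the vessel wall. Col1a1 (ENSMUSG00000001506, chromosome 11 of GRCm39 from 94827050 to 94843868) was at 5400.2, 8098 and 10547.5 normalized CPM in the lowest, median and highest AVF library and at 2119, 3032 and 5136 in sham. The lowest AVF library was sample 9 and the highest sham library was sample 18, and they lay 264 normalized CPM apart. Its expression was 2.52-fold higher in the AVF group (95% interval 1.76 to 3.63), a log2 fold change of 1.34 with a standard error of 0.24 (edgeR, adjusted p = 0.00432). Col1a2 (ENSMUSG00000029661, chromosome 6 from 4504814 to 4541555) encodes the partner chain. It was at 7121, 9604 and 13299 normalized CPM in AVF and at 2979, 4114 and 6697 in sham. The groups did not overlap, and the change was 2.28-fold (1.61 to 3.21), a log2 fold change of 1.19 with a standard error of 0.23 (edgeR, adjusted p = 0.00647).

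Type III collagen is found with type I in distensible tissues such as veins, arteries and skin, and Col3a1 encodes its only chain. Col3a1 (ENSMUSG00000026043, chromosome 1 from 45350698 to 45395840) was at 13017, 14879 and 17919 normalized CPM in AVF and at 4647, 6228 and 9869.8 in sham. All AVF libraries were higher than all sham libraries, and 5 of the 6 AVF libraries lay between 13017 and 14926. The change was 2.25-fold (1.65 to 3.06), a log2 fold change of 1.17 with a standard error of 0.21 (edgeR, adjusted p = 0.00379). The exons of Col3a1 overlap those of Gm54819 on the same strand, and its expected counts were not whole in 9 of 12 libraries, which is how RSEM records reads shared between genes. The counts of the other 8 genes were whole in all 12 libraries, and a count was called whole only if the deposited value had no fractional part.

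Type V collagen lies in the core of type I fibrils. Col5a1 (ENSMUSG00000026837, chromosome 2 from 27776397 to 27929526), which encodes the chain common to most type V molecules, was at 688, 867 and 1176 normalized CPM in AVF and at 232, 329 and 540.1 in sham. All AVF libraries lay above all sham libraries. Its change was 2.63-fold (1.87 to 3.70), a log2 fold change of 1.39 with a standard error of 0.23 (edgeR, adjusted p = 0.00257). Col5a2 (ENSMUSG00000026042, chromosome 1 from 45412554 to 45542442), the usual second chain, had the lowest adjusted p of the family. It was at 811, 903 and 1213 normalized CPM in AVF and at 255, 322 and 508 in sham. The groups were separated by 303 normalized CPM, from sham sample 18 to AVF sample 4. The change was 2.77-fold (2.11 to 3.65), a log2 fold change of 1.47 with a standard error of 0.18 (edgeR, adjusted p = 0.000493). Col5a2 and Col3a1 are neighbours on chromosome 1, on opposite strands with their 3′ ends facing each other and 16713 bases between them.

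Col5a3 (ENSMUSG00000004098, chromosome 9 from 20681337 to 20726418), the third type V chain, which is found in fewer tissues, did not pass the test. It was at 54.02, 59.2 and 69.3 normalized CPM in AVF and at 32.8, 49.2 and 55.6 in sham, and the groups overlapped through AVF sample 11 and sham samples 16 and 18. The fitted change was 1.28-fold (1.06 to 1.55), a log2 fold change of 0.36 with a standard error of 0.13 (edgeR, adjusted p = 0.0769). DESeq2 gave an adjusted p of 0.0326 for the same gene, still under 2-fold.

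The 3 genes known from cartilage and bone were expressed at low levels. Col11a1 (ENSMUSG00000027966, chromosome 3 from 113824134 to 114014367), whose chain can also join type V molecules, was at 9.67, 17.3 and 37.3 normalized CPM in AVF and at 9.18, 16.2 and 19.0 in sham. The female AVF samples 7 and 11, at 34.4 and 37.3, stood above all other libraries, which reached 19.3. The change did not pass the test, with a log2 fold change of 0.49 and a standard error of 0.31 (edgeR, adjusted p = 0.296). Col27a1 (ENSMUSG00000045672, chromosome 4 from 63132241 to 63253228) was the tested gene of the family with a lower level in the AVF group. It was at 8.18, 9.59 and 15.6 normalized CPM in AVF and at 13.1, 15.6 and 19.9 in sham. In the AVF group 5 libraries lay below every sham library, and AVF sample 7, the library with the most ribosomal RNA, lay among the sham libraries. Its log2 fold change was -0.61 with a standard error of 0.16 (edgeR, adjusted p = 0.0276), which passed the threshold of p but not that of 2-fold. Without samples 5 and 9 the log2 fold change of Col27a1 was -0.63 with an adjusted p of 0.0637 in edgeR. Col24a1 (ENSMUSG00000028197, chromosome 3 from 144998233 to 145257766) did not reach the filter. It had 2 to 18 counts in AVF libraries and 1 to 25 in sham libraries, and no fold change is given for it.

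**Figure D2:**
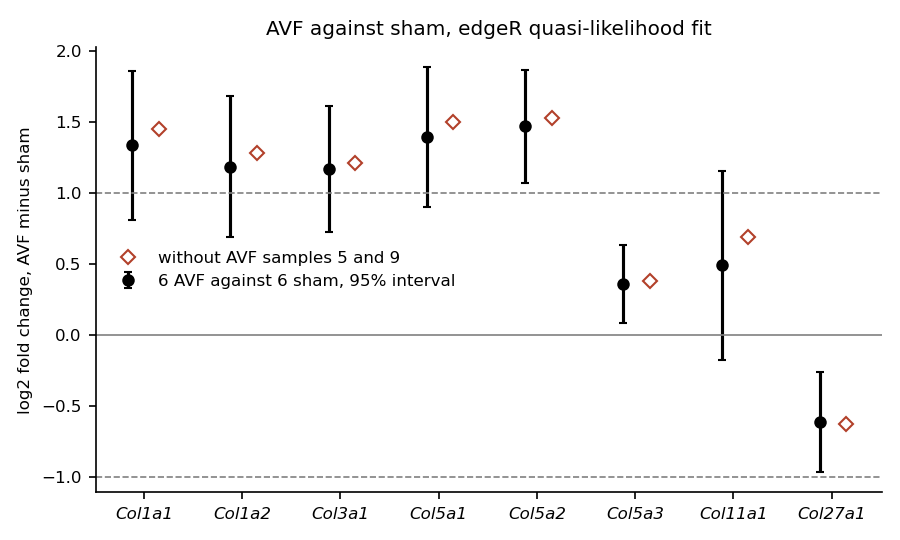
Log2 fold change of AVF against sham for the 8 tested genes, as black points with 95% intervals from the fit of 6 AVF and 6 sham libraries, and as open diamonds without AVF samples 5 and 9. Dashed lines mark 2-fold, and 5 genes lie above the upper line with and without these samples.

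Samples 5 and 9 did not stand apart in the fibrillar collagens as they did in hepatocyte genes. For none of the 9 genes were both samples above, or both below, all of the other 4 AVF libraries. Sample 9 was the lowest AVF library for Col1a1, Col1a2, Col3a1 and Col5a1, but sample 4 was the lowest for Col5a2. Sample 5 lay within the range of the other 4 AVF libraries for all 9 genes. The mean of samples 5 and 9 was 0.774 to 0.917 times the mean of the other 4 AVF libraries for the 5 DEG. Without them the log2 fold changes were 1.45 for Col1a1, 1.28 for Col1a2, 1.21 for Col3a1 and 1.53 for Col5a2, with Col5a1 between Col1a1 and Col5a2. No test was made between these samples and the other AVF, because that division came from expression and not from the labels.

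Levels of different genes were compared per kb of transcript, using the length of the canonical transcript. In the AVF group the order was Col3a1 with 2663 ± 314 (SD, n = 6) normalized CPM per kb, Col1a2 with 1883 ± 432 and Col1a1 with 1397 ± 329. The type V chains followed at 128.8 ± 21.9 for Col5a2 and 108.03 ± 22.7 for Col5a1. Col5a3 was at 9.65 ± 0.856, Col11a1 at 2.83 ± 1.46, Col27a1 at 1.39 ± 0.367 and Col24a1 at 0.0857 ± 0.0697. The ranges of neighbours overlapped between Col3a1 and Col1a2, Col1a2 and Col1a1, Col5a2 and Col5a1, and Col11a1 and Col27a1, and the other neighbours in this order did not overlap in either group. Within a library the order of the first 3 genes was the same in 12 of 12 libraries. Col5a2 was above Col5a1 in 11 of 12, and Col11a1 was above Col27a1 in 6 of 6 AVF but only 3 of 6 sham libraries. Types I and III together held 95.9% ± 0.338 of the family per length in AVF and 96.2% ± 0.305 in sham. Col5a1 and Col5a2 held 3.83% ± 0.309 and 3.299% ± 0.218, and the other 4 genes 0.231% ± 0.0562 and 0.467% ± 0.117.

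To determine whether chains that assemble together rose by the same amount, 5 ratios of counts were compared between the groups with exact permutation tests, two-sided and adjusted over the 5 ratios. The smallest p value this test allows with 6 against 6 libraries is 0.00216. The ratio of Col1a1 to Col1a2, partners in type I collagen, was 0.685, 0.740 and 0.794 per length in the lowest, median and highest AVF library and 0.643, 0.665 and 0.693 in sham. Sample 9 was the AVF library that overlapped with sham. The ratio was 1.11-fold higher in AVF (exact permutation p = 0.00433, adjusted p = 0.0108). In a molecule of 2 chains from Col1a1 and 1 from Col1a2 the chain ratio is above 1, whereas the RNA ratio was below 1 in every library with the transcript lengths used.

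The ratio of Col5a3 to Col5a1, which can share a type V molecule, was 0.0665, 0.0964 and 0.118 per length in AVF and 0.137, 0.181 and 0.317 in sham. Every AVF library lay below every sham library. The ratio in AVF was 0.479 times that in sham, a log2 difference of -1.06 (exact permutation p = 0.00216, adjusted p = 0.0108). This is the difference between a gene that rose and a gene that did not pass the test, both measured within the same libraries.

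The other 3 ratios did not pass the test with all libraries. The ratio of Col5a1 to Col5a2 was 0.677 to 0.898 per length in AVF and 0.732 to 1.05 in sham, with a log2 difference of -0.06 (exact permutation p = 0.582, adjusted p = 0.582). The ratio of Col5a1 to Col1a1 differed by 0.07 on the log2 scale (exact permutation p = 0.342, adjusted p = 0.427). The ratio of type III to type I, Col3a1 to Col1a1, was 1.54, 1.92 and 2.57 in AVF and 2.05, 2.15 and 2.34 in sham, a log2 difference of -0.15 (exact permutation p = 0.193, adjusted p = 0.321). The highest value of this ratio in the study was 2.57 in AVF sample 9. Without samples 5 and 9 the log2 difference was -0.24 (exact permutation p = 0.0286, adjusted p = 0.0476), and without sample 9 alone it was -0.23 (exact permutation p = 0.013, adjusted p = 0.0216), so that the call on this ratio rests on sample 9.

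**Figure D3:**
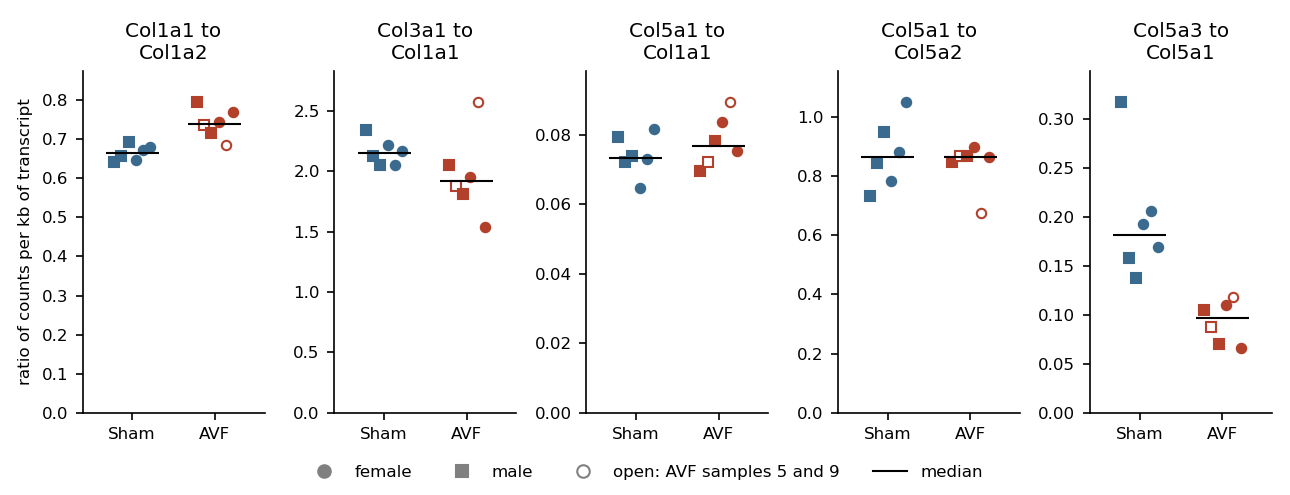
Ratio of counts per kb of transcript for 5 pairs of fibrillar collagen genes in 6 sham and 6 AVF libraries, on linear axes from 0, with the median as a line, circles for female and squares for male mice, and open symbols for AVF samples 5 and 9. The ratio of Col5a3 to Col5a1 shows no overlap between the groups, from 0.0665 to 0.118 in AVF and from 0.137 to 0.317 in sham.

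The sequence before the start of the gene is shown for 3 genes that rose and for Col5a3, which did not pass the test. The RefSeq promoter table (GRCm38.p6) matched 7 of the 9 genes and held no entry for Col1a1 and Col5a2. The 250 bases before each start were searched on both strands for 5 short motifs: CCAAT, the TATA box core TATAA, the GC box GGGCGG, the core of a SMAD site CAGAC and the AP-1 site TGANTCA. No motif in the list contains another. Capitals mark every match on either strand, and each sequence is printed 5′ to 3′ on the strand of its gene.
Col1a2 (chr6:4505368-4505617, plus strand): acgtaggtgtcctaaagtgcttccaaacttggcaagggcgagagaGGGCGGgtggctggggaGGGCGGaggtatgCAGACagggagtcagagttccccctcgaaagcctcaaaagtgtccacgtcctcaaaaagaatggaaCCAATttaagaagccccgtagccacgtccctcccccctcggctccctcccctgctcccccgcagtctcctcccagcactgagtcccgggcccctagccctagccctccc
Col3a1 (chr1:45311288-45311537, plus strand): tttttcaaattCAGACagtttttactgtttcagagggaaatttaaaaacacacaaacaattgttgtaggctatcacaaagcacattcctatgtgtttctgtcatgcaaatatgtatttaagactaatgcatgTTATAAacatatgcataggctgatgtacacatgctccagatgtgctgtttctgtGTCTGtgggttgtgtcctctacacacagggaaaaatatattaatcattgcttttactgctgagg
Col5a1 (chr2:27886175-27886424, plus strand): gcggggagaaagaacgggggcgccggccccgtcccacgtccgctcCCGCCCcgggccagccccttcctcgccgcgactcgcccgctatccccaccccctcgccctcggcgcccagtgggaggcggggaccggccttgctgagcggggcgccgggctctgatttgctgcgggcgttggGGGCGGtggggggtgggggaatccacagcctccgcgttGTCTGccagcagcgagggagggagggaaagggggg
Col5a3 (chr9:20815068-20815317, minus strand): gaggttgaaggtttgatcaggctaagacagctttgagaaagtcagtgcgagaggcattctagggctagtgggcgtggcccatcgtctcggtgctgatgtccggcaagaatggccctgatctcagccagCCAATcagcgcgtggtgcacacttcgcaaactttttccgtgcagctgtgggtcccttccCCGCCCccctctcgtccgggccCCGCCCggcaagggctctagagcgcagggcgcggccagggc
The windows of Col1a2, Col5a1 and Col5a3 were rich in G and C, at 62.0%, 76.4% and 62.8%, whereas that of Col3a1 was at 35.2%. The GC box was found in the windows of 5 of the 7 genes, against 32.7% of all 32851 windows, and Col3a1 and Col24a1 had none. CAGAC was found in 5 of 7 (42.2% of all windows), CCAAT in 3 of 7 (33.8%), TATAA in Col3a1 alone, on both strands at overlapping letters (22.8%) and TGANTCA in 0 of 7 (6.75%). Genes that rose thus had windows of different base content and different motifs, and these counts are a description of short windows.

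Genes of the collagen pathway were read from a list of 61, ordered by their role in making, assembling and removing fibrils. Of these, 58 were tested, 12 rose and 1 fell as DEG by edgeR, against 3.37% and 1.4% of all tested genes. Their median log2 fold change was 0.54, against -0.01 over all tested genes. When the 2-fold rule was left out, 33 were higher and 1 was lower at an adjusted p value under 0.05, against 8.63% and 5.13% of all tested genes. Col2a1, the main collagen of cartilage fibrils, Kera and Mmp13 did not reach the filter, and Col11a2, the partner of Col11a1, was at 0.458 to 1.73 normalized CPM in AVF and 0.663 to 1.91 in sham.

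Inside the cell, the enzymes that modify procollagen had 1 DEG that rose among 15, where 3.37% of all tested genes rose as DEG. At an adjusted p value under 0.05 alone 10 of the 15 were higher, against 8.63% of all tested genes. P4ha3, a catalytic subunit of prolyl 4-hydroxylase, was at 3.55, 11.2 and 14.9 normalized CPM in AVF and at 0.836, 2.18 and 2.76 in sham, and it rose 5.28-fold (3.00 to 9.30, adjusted p = 0.002, edgeR). P4ha1, another catalytic subunit, was at 99.9 to 127 and 92.0 to 132, with a log2 fold change of 0.13 (edgeR, adjusted p = 0.366). P3h1, a prolyl 3-hydroxylase, was 1.98-fold higher (edgeR, adjusted p = 0.00193), just under the 2-fold rule. Of 10 genes of folding and export, 7 were higher at the adjusted p value alone (8.63% of all tested genes) and 2 rose as DEG (3.37%). These were Fkbp10, a chaperone of procollagen, 2.26-fold higher (adjusted p = 0.00128), and Sparc, a secreted protein that binds collagen, 2.02-fold higher (adjusted p = 0.00392, edgeR for both) and under 2-fold when any of 7 single libraries was left out. Serpinh1, which encodes the collagen chaperone HSP47, was 1.66-fold higher, with no overlap between the groups (edgeR, adjusted p = 0.00134).

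Propeptide removal was the role in which a gene fell. Adamts3, a protease for N-propeptides, was at 4.64 to 16.8 normalized CPM in AVF and at 2.14 to 3.20 in sham, 3.20-fold higher (2.07 to 4.96, adjusted p = 0.00356, edgeR). Adamts2, another of these proteases, was at 472 to 669 in AVF and 192 to 375 in sham and was 1.98-fold higher (edgeR, adjusted p = 0.00305). Tll1, a protease of the BMP1 family that cuts C-propeptides, was at 10.7 to 17.6 normalized CPM in AVF and at 20.4 to 37.2 in sham. Every AVF library was below every sham library, with a log2 fold change of -1.04 and a standard error of 0.17 (edgeR, adjusted p = 0.00257). Without samples 5 and 9 it was at -0.90 (adjusted p = 0.0121) and no longer past 2-fold. Bmp1 was 1.78-fold higher (edgeR, adjusted p = 0.00815).

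Fibril partners, proteins on or between fibrils, held 6 of the 12 DEG that rose. These were 6 of 10 tested, where 3.37% of all tested genes rose as DEG. Col12a1, a collagen with interrupted helices that lies along type I fibrils, had the largest change of the pathway list. It was at 161.6, 223.2 and 431.3 normalized CPM in AVF and at 20.97, 30.4 and 39.7 in sham, a log2 fold change of 3.17 with a standard error of 0.27 (edgeR, adjusted p = 6.45e-05). Its relative Col14a1 rose 2.06-fold, and Fn1, which encodes the fibronectin on which collagen fibrils form, rose 3.37-fold (edgeR, adjusted p = 0.00631 and 0.00036). Col14a1 was under 2-fold when sample 6 or sample 16 was left out, at log2 fold changes of 0.909 to 0.918. Among the small leucine-rich proteoglycans that bind fibrils, Lum rose 2.45-fold, Bgn 2.36-fold and Fmod 2.21-fold, the last with overlapping groups (edgeR, adjusted p = 0.000194, 0.002 and 0.0311), and Fmod was no DEG when any of 6 single libraries was left out. Dcn, which encodes decorin, was at 2722 to 3215 normalized CPM in AVF and 1992 to 3897 in sham, with a log2 fold change of 0.12 (edgeR, adjusted p = 0.665). Ogn was at 671 to 783 and 635 to 933, a log2 fold change of -0.11 (edgeR, adjusted p = 0.547).

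Of 7 collagen receptors 0 were DEG in edgeR (4.77% of all tested genes) and 0 with DESeq2. In edgeR 4 had an unadjusted p value under 0.05, and 2 had an adjusted p value under 0.05 (13.8% of all tested genes). The integrin subunit Itgb1 was 1.44-fold higher (adjusted p = 0.0111) and its partner Itga10 1.65-fold (adjusted p = 0.0468, edgeR for both). Ddr2, a receptor kinase for fibrillar collagen, was at 295 to 422 normalized CPM in AVF and 253 to 547 in sham. Among 7 tested genes of uptake and degradation 2 rose as DEG (3.37% of all tested genes). Mmp14, a collagenase on the cell surface, rose 2.52-fold (1.89 to 3.35, adjusted p = 0.00125), and Mrc2, the receptor that takes up collagen fragments, rose 2.97-fold (2.07 to 4.26, adjusted p = 0.00181, edgeR for both). Mmp2 was 1.71-fold and Fap 1.85-fold higher, each with no overlap between the groups and under the 2-fold rule.

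**Figure D4:**
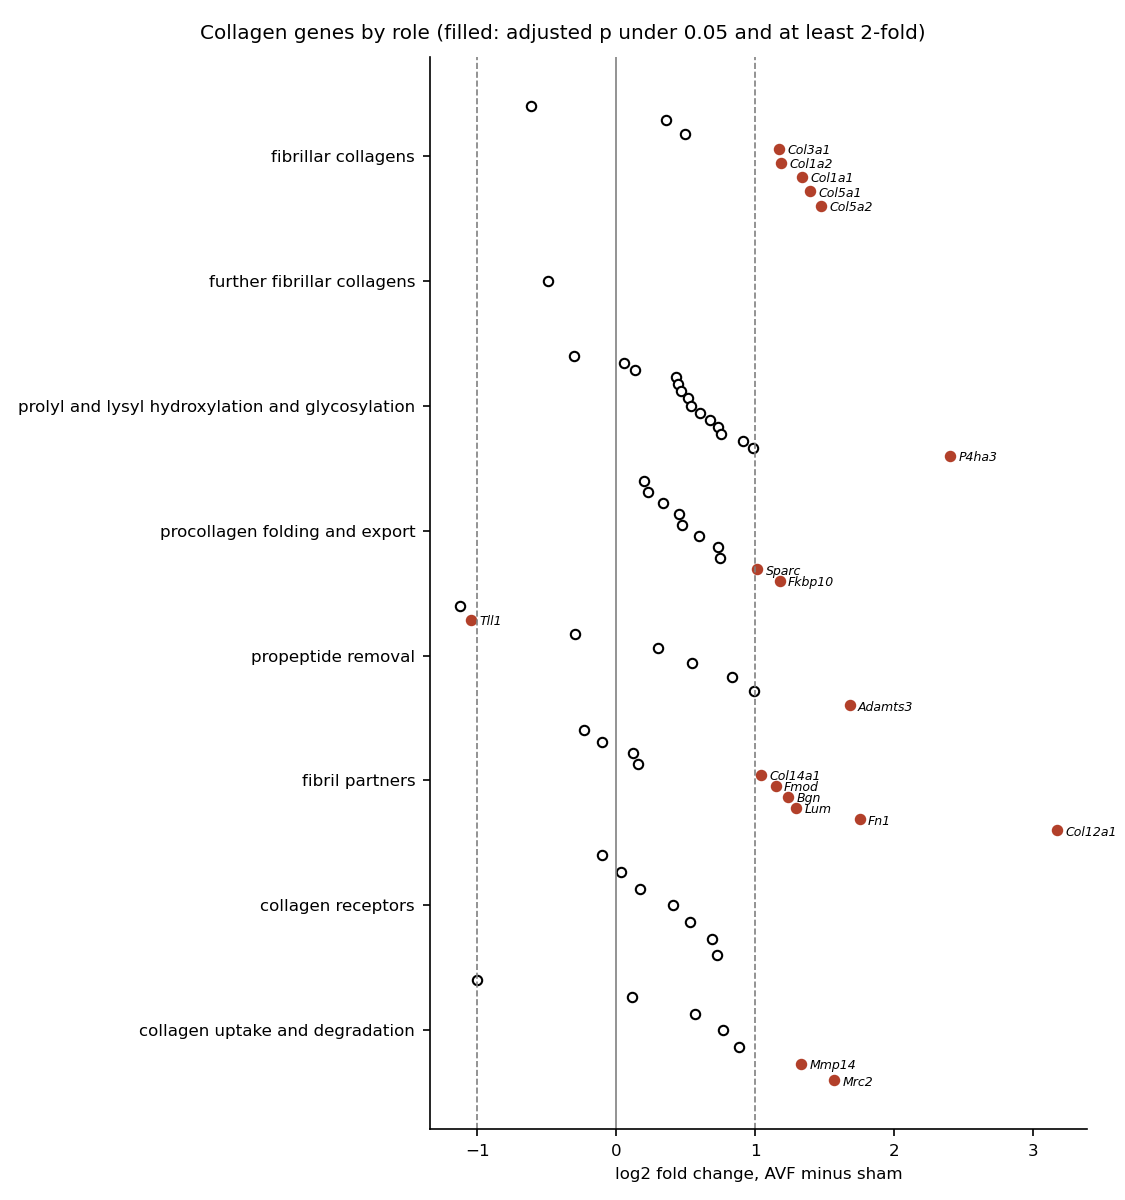
Log2 fold change of AVF against sham for the tested fibrillar collagens and 58 further collagen genes, in rows by role, each point 1 gene. Filled points are DEG, open points are not, and dashed lines mark 2-fold; P4ha3 and Col12a1 lie farthest to the right, at 2.40 and 3.17.

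The 3 genes most like Col1a1 over the 12 libraries were other fibrillar collagens. Profiles were compared by the root mean square difference of log2 CPM centred on its mean. Of 15886 tested genes with a name, Col1a2 was the nearest to Col1a1 at 0.0952, Col5a1 the second at 0.121, Col3a1 the third at 0.180 and Col5a2 the sixth at 0.211. Col5a3 was 1557th, Col11a1 3084th and Col27a1 12667th. Outside the lists the nearest to Col1a1 were Mfap2, Gpx7, Col16a1, Thbs2 and C1qtnf5, at 0.193 to 0.237. Mfap2 was nearer than Col5a2, and a gene of the pathway or marker lists lay between Col3a1 and Mfap2. Nearest to Col5a1 were the fibrillar collagens Col1a1, Col1a2, Col5a2 and Col3a1, at 0.121 to 0.191. Outside the lists the nearest to Col5a1 were C1qtnf6, Fstl1, Loxl2, Cd276 and Adamts12, at 0.196 to 0.233. All these points share their 12 libraries, and the difference between AVF and sham is part of the likeness.

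The answer of the family to the fistula was also compared between female and male mice, with 3 in each of 4 groups. With 22163 genes in the fit, edgeR found an interaction of operation and sex in 0 of the 9 genes and in 0% of all genes. At an unadjusted p value under 0.05 it found 0 of the 9. DESeq2 called 0 of the 9, and 3 genes in all. The difference of the log2 fold changes, female minus male, was 0.14 for Col1a1 (95% interval -0.91 to 1.20) and 0.46 for Col5a2 (-0.26 to 1.17). The largest in size were 0.89 for Col11a1 (-0.21 to 1.98) and -2.16 for Col24a1 (-5.14 to 0.83), the latter from few counts. Of the 9 differences 8 were above 0. All the intervals given reach past a 2-fold difference, which limits what 3 mice in each group can show. Between female and male AVF, 0 of the 9 were DEG at 1.5-fold in edgeR (0.0226% of all genes). With DESeq2 0 of the 9 were DEG, and 50 genes in all. In edgeR 1 of the 9 had an unadjusted p value under 0.05. That gene was Col11a1, at 29.0 normalized CPM in female and 14.7 in male AVF, a log2 difference of 0.96 (95% interval 0.18 to 1.74, adjusted p = 0.979). Between female and male sham, 0 of the 9 were DEG in edgeR (0.0451% of all genes). With DESeq2 0 of the 9 were DEG, and 149 genes in all. At an unadjusted p value under 0.05 there were 2 of the 9 in edgeR, Col5a3 and Col24a1, and 3 in DESeq2.

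Marker genes of other cells of the vessel and its surroundings are given beside the collagens. Over 5 macrophage genes the summed level was 467 to 850.4 normalized CPM in AVF and 265 to 497 in sham, and 4 of the 5 were higher at an adjusted p value under 0.05 (8.63% of all tested genes), all under 2-fold. Over 5 brown fat genes it was 14.0 to 186 in AVF and 88.3 to 1409 in sham, with Cidea and Cox7a1 DEG that were lower. The sham samples 17 and 18 were the lowest sham libraries in brown fat genes, at 88.3 and 170.1, and the highest in Col1a1, at 3965 and 5136. These samples were also the highest sham libraries in smooth muscle genes, at 4293 and 4662, and in fibroblast genes, at 1329 and 1299. In the AVF group, samples 6 and 11 were the highest libraries in Col1a1 and in smooth muscle genes and the lowest in brown fat genes. In fibroblast genes AVF sample 6 was the highest at 1383, but sample 5 at 1376 lay above sample 11 at 1365. The 6 fibroblast genes overlapped between the groups at 1140 to 1383 and 976 to 1329, with 3 higher and 1 lower at an adjusted p value under 0.05 (8.63% and 5.13% of all tested genes), of which Tcf21 was a DEG. The 5 smooth muscle genes were at 2205 to 4773 and 2545 to 4662, and the 5 endothelial genes at 1222 to 1412 and 1093 to 1871. Among the 6 cartilage and bone genes Matn1, Ibsp and Bglap were at or near 0 in all libraries, and Acan was a DEG at 0.540 to 1.65 in AVF and 0 to 0.382 in sham. The part of these cells in the changes of the fibrillar collagens was not tested.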

How the data were processed

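RNA-seq of the IVC of 12 mice was analysed from the deposited table of expected counts. The authors used PRINSEQ and Trimmomatic 0.39 for trimming and STAR 2.7.7a for alignment to GRCm39, and estimated expected counts per gene with RSEM 1.3.3, without normalization, so that reads of similar genes are divided between them. Counts were rounded, normalized by TMM and tested with edgeR 4.0.16 (R 4.3.3), using the quasi-likelihood test with Benjamini-Hochberg adjustment over all tested genes. The comparisons were AVF against sham (more than 1 CPM in at least 2 samples), and the interaction of operation and sex and female against male (more than 12 counts over all samples). Ratios of counts (0.5 added to each) were compared with exact permutation tests in SciPy 1.17.1. Gene positions, names and lengths came from GENCODE M39 (GRCm39), a later release than that of the authors. On simulated counts, 178 of 200 genes changed 4-fold between AVF and sham were recovered with 15648 genes. With 21530 genes, 94 of 200 were recovered for the interaction and 131 of 200 for female against male AVF.

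The genes and lists were chosen with earlier results of these data known. Named genes are the 9 fibrillar collagens, the pathway and marker lists, and the 5 genes outside them nearest in profile to Col1a1 and to Col5a1. Alternatives were edgeR's exact test, DESeq2 1.42.0, other size factors and filters, unrounded counts, no fold threshold, sex as a covariate, a replicate block, no ribosomal RNA genes, all counts as the total of the family's share, and samples left out. Blocks of number across the sexes were added after values were seen. Pairs of libraries of the same group differed by a chi-square of at least 36.8 per degree of freedom, so no library was taken as a duplicate. The limit of 3 counts covers counting error only.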

Additional observations from a re-analysis of the deposited data

Results flagged for a closer look

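Samples far from the other 5 of their group were searched with Dixon's test in 146 groups of 6 libraries, of which chance flags about 1 in 20, and 6 were found. In the fibrillar collagens, sham sample 23 was at 1.21 normalized CPM of Col24a1, against 0.0424 to 0.418 in the other sham libraries. AVF sample 9 had a log2 ratio of counts of Col5a1 to Col5a2 of -0.40, against -0.08 to 0.01 in the other AVF libraries. In the pathway, sham sample 16 was low in P4ha2 at 18.5 normalized CPM (27.5 to 30.8 in the others), and sham sample 23 was high in Plod2 at 337 (31.99 to 116). Without sham sample 23 Plod2, a lysyl hydroxylase, had a log2 fold change of 1.62 between AVF and sham (adjusted p = 0.0209, edgeR), against 0.91 (adjusted p = 0.243) with all libraries. AVF sample 11 was at 16.8 normalized CPM of Adamts3 (4.64 to 8.50 in the others), and AVF sample 6 at 5178 of Fn1 (2182 to 3122).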

How the results depend on the processing

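The count of 5 DEG among the fibrillar collagens was the same under every alternative that kept the fold threshold, and without a fold threshold it was 6, with Col27a1 added as lower. Over 23 alternatives, Col1a1, Col1a2, Col3a1, Col5a1 and Col5a2 kept an adjusted p value under 0.05, with log2 fold changes from 1.09 for Col3a1 to 1.604 for Col5a2. Col27a1 passed the threshold of p in 21 of 23 and Col5a3 in 1 of 23. Counts of 0 between the sexes and in the interaction stayed at 0. Of 61 pathway genes, 13 were DEG, 10 to 15 with each library left out, and 34 without a fold threshold. Sparc fell under 2-fold when any 1 of samples 5, 6, 11, 16, 19, 22 and 23 was left out (0.945 to 0.996), Tll1 without 5, 9, 17 or 23 or without 5 and 9 together (-0.995 to -0.905), and Col14a1 without 6 or 16 (0.909 to 0.918). Fmod lost its adjusted p without 5, 6, 11, 16, 22 or 23 (edgeR, adjusted p = 0.0515 to 0.065). P3h1 and Adamts2 passed 2-fold in 9 and 11 alternatives, at up to 1.06 and 1.07. Leaving out 1 library moved 3 pathway genes across 0, none a DEG: P3h2 from -0.0363 to 0.14, Itga2 from -0.20 to 0.0072 and Ddr2 from -0.0510 to 0.18.

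The ratio of Col1a1 to Col1a2 ranged from 0.13 to 0.18 on the log2 scale with each library left out, that of Col5a3 to Col5a1 from -1.16 to -0.91, that of Col3a1 to Col1a1 from -0.23 to -0.0827, and that of Col5a1 to Col5a2 from -0.11 to 0.0022. Without samples 5 and 9 the last was 0.0022 and that of Col3a1 to Col1a1 was -0.24.

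Same-numbered AVF and sham libraries of a sex correlated by -0.14 to 0.17, over 0.1 in 3 of 6 pairs. Their mean was 0.049, against -0.023 for other numbers of the same sex. Of the AVF libraries, 3 of 6 correlated best with their own number. With 6 pairs these values cannot decide whether replicate numbers pair the libraries. With the replicate block, 5 fibrillar collagens and 15 pathway genes were DEG and 0 had an interaction, 2 at an unadjusted p value under 0.05. A sign-flip test over the 6 pairs can give no p value under 0.0313. It gave 0.0313 (adjusted p = 0.0781, exact permutation test) for the ratios of Col1a1 to Col1a2 at 0.15 and Col5a3 to Col5a1 at -1.06. A block within sex could not be fitted for female against male, and a block of number 1 to 3 gave 0 DEG in both.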
